A study of Arabidopsis thaliana with 13 samples.

Results

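The effect of the wox5-1 mutation was compared between 2 sorted populations of Arabidopsis thaliana root cells, quiescent centre (QC) marker cells and cortex-endodermis initial (CEI) marker cells, by asking for every gene whether its change in the mutant was the same in both. QC-marker cells were sorted by the WOX5:GFP reporter and CEI-marker cells by the CYCD6::GUS-GFP reporter, from Col-0 roots that were protoplasted 5 days after germination on standard medium. The groups were wild-type QC-marker cells (n = 3 libraries), wox5-1 QC-marker cells (n = 4), wild-type CEI-marker cells (n = 3) and wox5-1 CEI-marker cells (n = 3). All 4 groups went through the same protoplasting and sorting, so no library shows the root without these steps, and each population is only what its reporter marked in that genotype. Expression is given as FPKM, the number of sequenced fragments per length of transcript and per size of the library. Of the 33560 genes in the table, the 21574 with 1 FPKM or more in at least 3 of the 13 libraries were tested.

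WOX5 is a homeobox transcription factor made in the QC, a small group of slowly dividing cells at the centre of the root stem cell niche. It is known to hold neighbouring columella stem cells undifferentiated and to limit division in the QC itself. The CEI and its daughter lie next to the QC and divide to give the cortex and endodermis. That division uses the D-type cyclin CYCD6;1, which the transcription factors SHORT-ROOT (SHR) and SCARECROW (SCR) activate. The study's title also names PERIANTHIA (PAN), a bZIP transcription factor, and AN3 (also GRF-INTERACTING FACTOR 1), which works as a coactivator of transcription factors.

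A change is the mean log2(FPKM + 1) of wox5-1 minus that of the wild type, and the difference of effects is the change in QC-marker cells minus the change in CEI-marker cells. A positive difference therefore means that wox5-1 moved a gene further up, or less far down, in QC-marker cells. Each was tested with limma over all 21574 genes, and a gene was called at a Benjamini-Hochberg adjusted p under 0.05. The 2 changes compare different libraries, but the filter and the variance estimate are shared.

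The following facts about the libraries touch the results. In wild-type QC-marker library 2, 11074 genes reached 1 FPKM, against 17951 to 21502 in the other 12. In wild-type CEI-marker library 4 the summed FPKM of 13 columella and root cap genes was 2583, against 26.6 to 357 in the other CEI-marker libraries, and WOX5 was listed at 0. In wox5-1 CEI-marker library 1 the summed FPKM of the green tissue genes was 15755, against 8.23 to 58.2 in the other CEI-marker libraries. WIP5, a zinc finger gene of the QC, stood at 33.7 to 98.6 FPKM in the QC-marker libraries and at 0 to 3.33 in the CEI-marker ones. Among ground tissue markers, the zinc finger gene MGP had FPKM values of 74.2, 78.1 and 8.13 in wild-type CEI-marker libraries 1, 3 and 4, and of 6.51 to 29.0 in wild-type QC-marker ones. Library 4 thus lay within the QC-marker range for MGP. In the mutant MGP was at 10.8 to 21.2 FPKM in CEI-marker and at 4.44 to 7.06 in QC-marker cells. The young ground tissue genes as a list did not separate the populations: their summed FPKM was 69.7 to 385 in wild-type and 88.1 to 148 in mutant CEI-marker cells, and 123 to 154 in wild-type and 106 to 145 in mutant QC-marker cells. The median SD of a gene on the log2 scale was 0.924 in wild-type QC-marker cells, 0.263 in wox5-1 QC-marker cells, 0.685 in wild-type and 0.553 in wox5-1 CEI-marker cells.

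With all 13 libraries, more genes were called in QC-marker than in CEI-marker cells, and 5 genes passed the test that compares the populations. Of the 21574 genes, 741 (3.43%) were called in QC-marker cells, 659 higher (3.05%) and 82 lower (0.38%), and 6 (0.0278%) in CEI-marker cells, with 0 in both. Which population had more calls depended on the libraries: without the 3 that stand apart 1851 genes were called in QC-marker and 4574 in CEI-marker cells, and without the 2 CEI-marker ones among them 964 and 1163. On the difference of effects 5 genes (0.0232%) were called, 2 higher (0.00927%) and 3 lower (0.0139%), by limma, and 2405 (11.1%) had an unadjusted p under 0.05. AT2G41233 and ATMG00360, 2 of the 5, passed the filter only through the 1 group where they were above 0, so they had to differ. They ranked 1 and 3 by p, and their ranks lower the adjusted p of the other 3 called genes. The adjusted p without those 2 genes was not computed. With all 13 libraries, the calls of AT3G17100, AT3G44440 and WAG2 are therefore shown only with those 2 genes in the test. The median SE of the difference was 0.83 on the log2 scale, so small differences were not detectable with these libraries. The median difference over all genes was 0.32, and 13333 of the 21574 genes were positive, so the lists below are read against that shift. With quantile normalization the median was 0.06.

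Without the 3 libraries that stand apart, 2979 genes (14.3%) were called on the difference, 1934 higher and 1045 lower. Those libraries were chosen because they stand apart, and leaving them out lowered the median within-group SD from 0.749 to 0.434 with only 2 libraries in 3 of the 4 groups. With a variance for each group, 0 genes were called and 1734 had an unadjusted p under 0.05. Leaving out 1 library gave between 0 calls (without any of the 3 wox5-1 CEI-marker libraries) and 59 (without wild-type QC-marker library 1), and 32 calls without wild-type QC-marker library 2.

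**Figure D1:**
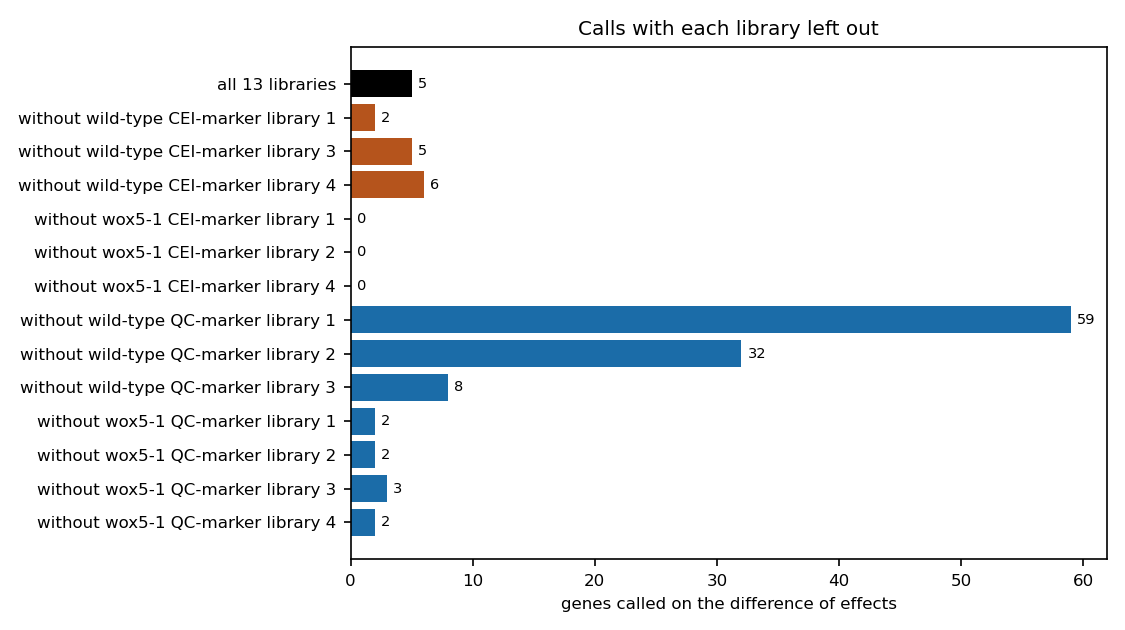
Genes called on the difference of effects (x axis, number of genes, adjusted p under 0.05) with all 13 libraries (black) and with each library left out, QC-marker libraries in blue and CEI-marker libraries in orange. The count was 5 with all libraries, 0 without any of the wox5-1 CEI-marker libraries, and 59 at most, without wild-type QC-marker library 1.

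Among the 5 called genes, 2 had changes of opposite sign and at least 1 log2 unit in each population, 2 changed in CEI-marker cells with a change under 0.5 in QC-marker cells, and 1 had positive changes of unequal size in both. No called gene had a change of at least 1 in QC-marker cells and under 0.5 in CEI-marker cells, but AT3G17100 lay just above that limit.

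WAG2 (AT3G14370) is an AGC protein kinase that, with its close relatives WAG1 and PINOID (PID), phosphorylates PIN auxin efflux carriers. In QC-marker cells it had FPKM values of 76.6, 74.8 and 44.7 in the wild type against 11.8, 12.9, 14.5 and 13.7 in the mutant. In CEI-marker cells it had FPKM values of 26.3, 25.5 and 48.4 in the wild type (libraries 1, 3 and 4) and 63.9, 83.4 and 65.0 in the mutant (libraries 1, 2 and 4). The genotypes did not overlap in either population, and the mutant was the lower in QC-marker cells and the higher in CEI-marker cells. The change was -2.19 (SE 0.33, adjusted p = 0.00476, limma) in QC-marker cells and 1.11 (SE 0.36, adjusted p = 0.493) in CEI-marker cells. The difference was -3.30 (95% interval -4.35 to -2.25, adjusted p = 0.0363, limma). It was -3.55 (adjusted p = 0.00682) without the 3 libraries, and it was called in 4 of the 13 fits that leave out 1 library, with adjusted p from 0.0109 to 0.163. The highest wild-type CEI-marker value was in library 4, the library with the high root cap sum.

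WAG1 and PID were looked at because of WAG2, after its values were seen. WAG1 had FPKM values of 62.0, 747 and 72.4 in wild-type and 6.95, 9.72, 9.79 and 17.3 in mutant QC-marker cells, with no overlap. Its FPKM in CEI-marker cells overlapped, at 32.8, 5.53 and 143 in the wild type against 92.2, 44.7 and 52.1 in the mutant. The WAG1 difference of -4.67 (SE 1.36) had an adjusted p of 0.250 (limma), with changes of -3.73 and 0.94. The 747 FPKM was in wild-type QC-marker library 2. For PID the genotypes overlapped in both populations, and the difference was 1.33 (SE 1.31, adjusted p = 0.686, limma).

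AT3G44440, annotated in RefSeq as protein coding and without a symbol, showed the same pattern at low level. It had FPKM values of 3.79, 4.33 and 3.25 in wild-type QC-marker cells and was listed at 0 in all 4 mutant QC-marker libraries. In CEI-marker cells it had FPKM values of 0, 0 and 1.76 in the wild type against 5.59, 4.22 and 4.80 in the mutant. The difference on the log2(FPKM + 1) scale was -4.31 (SE 0.62, adjusted p = 0.0325, limma), a value that depends on the pseudocount, and it was called in 4 of the 13 fits that leave out 1 library.

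AT3G17100, which RefSeq lists under the synonym AIF3 (ATBS1 Interacting Factor 3, of a family of basic helix-loop-helix proteins), rose in QC-marker cells. Its FPKM there was 0.912, 0 and 0.952 in the wild type against 99.1, 87.7, 36.1 and 102 in the mutant. In CEI-marker cells the FPKM was 24.8, 19.6 and 65.3 in the wild type against 39.3, 49.8 and 52.8 in the mutant. The wild-type QC-marker libraries were thus the only group near 0, and the CEI-marker genotypes overlapped. The change was 5.62 (SE 0.49, adjusted p = 0.000274, limma) in QC-marker cells and 0.55 (95% interval -0.57 to 1.66) in CEI-marker cells. The difference was 5.07 (95% interval 3.54 to 6.6, adjusted p = 0.0325, limma), and it was called in 6 of the 13 fits that leave out 1 library.

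The pair of genes that changed on the CEI-marker side were listed at 0 in 10 of the 13 libraries. AT2G41233 was listed at 28.3, 21.6 and 14.4 FPKM in mutant CEI-marker cells and at 0 elsewhere (difference -4.44, SE 0.51, adjusted p = 0.00865, limma). ATMG00360, whose ATMG prefix is that of the mitochondrial genome, had FPKM values of 39.6, 12 and 12.2 in wild-type CEI-marker cells and was listed at 0 elsewhere (difference 4.25, SE 0.61, adjusted p = 0.0325, limma). Each passed the filter only through the 3 libraries in which it was above 0, so it had to differ between groups, and no fit without 1 of those libraries could test it.

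A listed 0 need not mean absence of the transcript. AT1G43170 (RPL3A), a protein of the large ribosomal subunit that growing cells use, was listed at 0 in 9 of the 13 libraries and at 270 to 726 FPKM in the other 4. Its difference of -12 (SE 3.13, adjusted p = 0.218, limma) was the most negative of all genes tested. In all, 43 tested genes reached 100 FPKM in a library and were listed at 0 in 3 or more others.

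**Figure D2:**
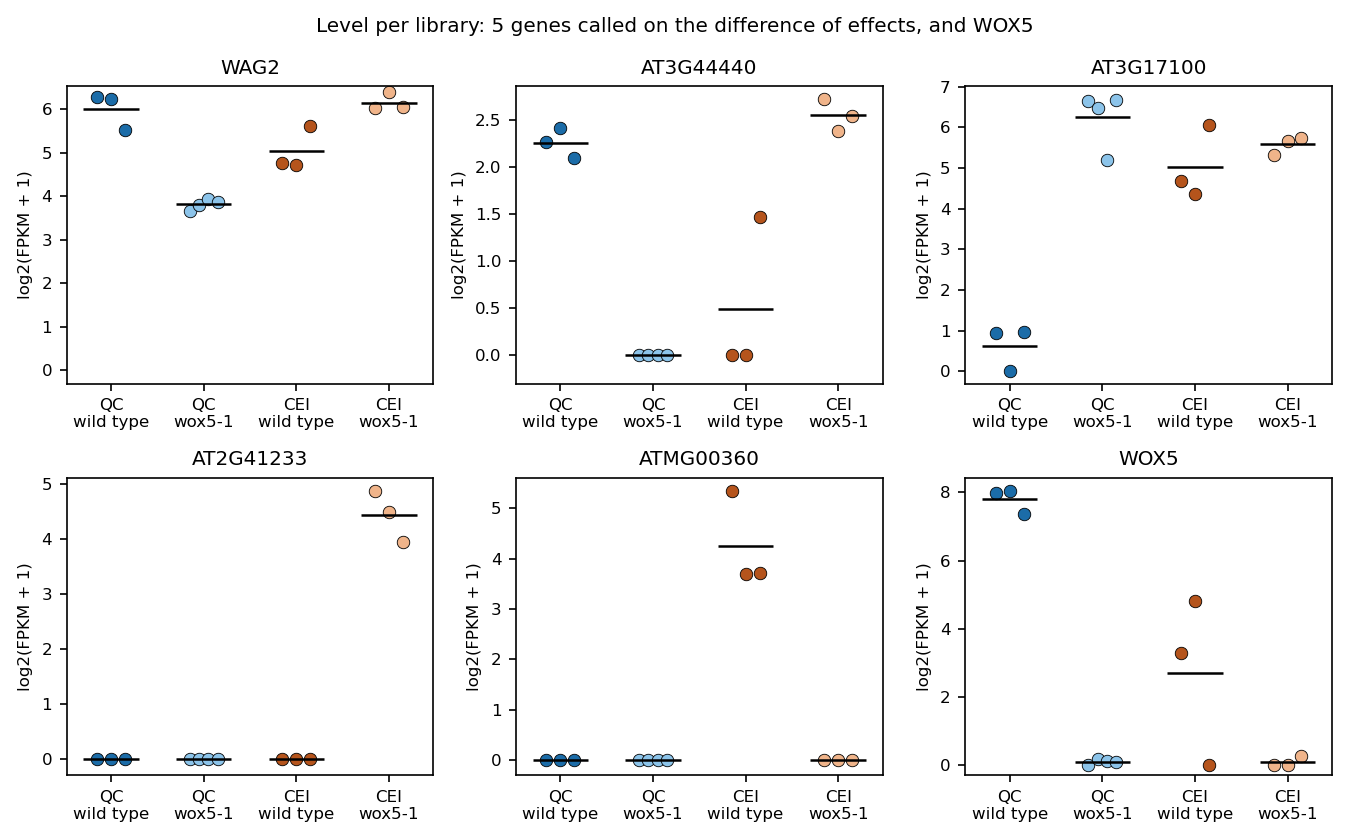
Level of the 5 genes called on the difference of effects, and of WOX5, as log2(FPKM + 1) (y axis) in each library (points) by population and genotype, with the group mean (line). WAG2 is lower in wox5-1 QC-marker cells and higher in wox5-1 CEI-marker cells, without overlap, while AT2G41233 and ATMG00360 are above 0 in 1 group each.

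Of the genes that the study's title and reporters concern, none was called on the difference. WOX5, the mutated gene, had FPKM values of 255, 262 and 163 in wild-type and 0 to 0.114 in mutant QC-marker cells. Among CEI-marker libraries it reached 8.82, 27.3 and 0 FPKM in the wild type against 0, 0 and 0.207 in the mutant. Every mutant library was thus at or near 0, and the populations differed in how much WOX5 the wild type had. The change of WOX5 was -7.71 (SE 0.83) in QC-marker and -2.62 (SE 0.88) in CEI-marker cells, and the difference was -5.10 (SE 1.21, adjusted p = 0.161, limma). Without the 3 libraries it was -3.67 (adjusted p = 0.0114).

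CYCD6;1, the cyclin whose promoter drives the CEI reporter, had FPKM values of 0.658, 0 and 2.07 in wild-type and 5.75, 5.39, 4.68 and 4.56 in mutant QC-marker cells. In CEI-marker cells its FPKM was 1.90, 22.7 and 7.55 in the wild type against 4.33, 5.47 and 0.748 in the mutant. The QC-marker genotypes did not overlap and the CEI-marker ones did, and within the mutant the ranges of the populations overlapped. Its difference was 2.92 (95% interval 0.70 to 5.13, adjusted p = 0.355, limma).

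PAN had FPKM values of 24.9, 0 and 31.2 in wild-type and 11.8 to 24.9 in mutant QC-marker cells, and its difference was 1.77 (SE 1.54, adjusted p = 0.649, limma). Without wild-type QC-marker library 2, where PAN is listed at 0, it was 0.15. AN3 was lower in every wox5-1 QC-marker library (17.2 to 30.4 FPKM) than in the wild type (76.3 to 107). Its CEI-marker FPKM values overlapped, at 243, 306 and 21.2 in the wild type against 135, 49.1 and 24.1 in the mutant. The difference of AN3 was -0.94 (SE 1.1, adjusted p = 0.741, limma), and it turned to 0.27 without wild-type CEI-marker library 4.

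The transcription factor SHR had a difference of 1.66 (SE 0.86, adjusted p = 0.482, limma) and stood lower in every wox5-1 CEI-marker library (0.562 to 3.96 FPKM) than in the wild type (4.31 to 7.85). SCR had a difference of 0.73 (SE 0.97, adjusted p = 0.777, limma), which turned to -0.08 without wild-type CEI-marker library 3. Over the 6 genes WOX5, CYCD6;1, PAN, AN3, SHR and SCR, 4 differences were positive and the median was 1.2, or 0.20 without wild-type QC-marker library 2.

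**Figure D3:**
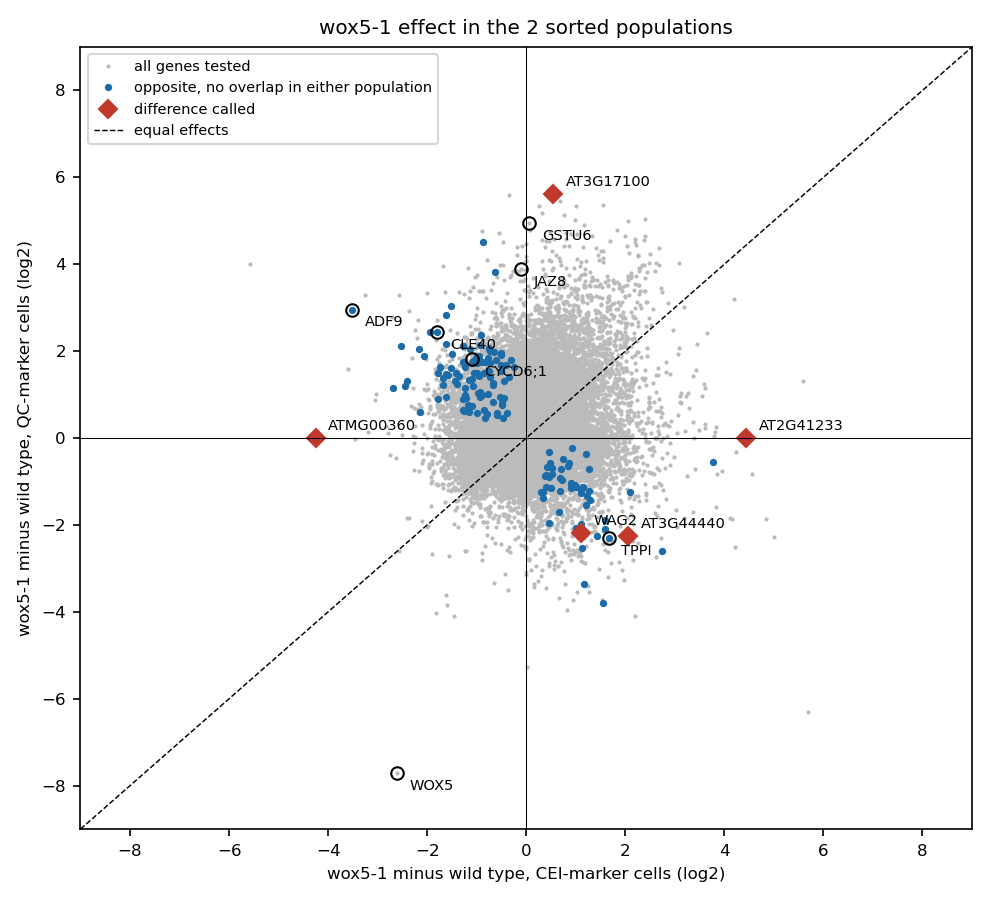
Change in wox5-1 against wild type in CEI-marker cells (x axis) and QC-marker cells (y axis), both in log2(FPKM + 1), for the 21574 genes tested (grey). Blue points are the 152 genes whose genotypes separate in opposite directions without overlap, red diamonds are the 5 called genes, open circles are other genes of the text, and the dashed line marks equal changes.

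Without regard to the test, 152 genes (0.705%) had genotypes that did not overlap in either population and separated in opposite directions. Of these, 101 (0.468%) were higher in wox5-1 QC-marker and lower in mutant CEI-marker cells, and 51 (0.236%) the reverse. For comparison, 403 genes (1.87%) separated in the same direction in both populations, 367 higher (1.7%) and 36 lower (0.167%). In QC-marker cells 5094 genes (23.6%) did not overlap, and in CEI-marker cells 2373 (11%). With only 3 or 4 libraries per genotype, genes can separate without any genotype effect, and how many did so was not tested. Among the 604 genes called with opposite changes of at least 1 without the 3 libraries, the split was the other way, with 160 higher and 444 lower in QC-marker cells. In the set of 152, 2 were called on the difference, WAG2 and AT3G44440. RefSeq lists 142 of the 152 as protein coding (93.4%, against 93.9% of all genes tested), and their median level was 2.86 on the log2(FPKM + 1) scale, against 3.09 for all.

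The genes with a symbol and the largest differences in that set were 4 that were higher in QC-marker and lower in CEI-marker mutant cells, and 2 with the reverse pattern. ADF9, an actin-binding protein of the actin depolymerizing factor family, had FPKM values of 27.1, 291 and 576 in wild-type and 984 to 1502 in mutant QC-marker cells. In CEI-marker cells ADF9 had FPKM values of 4.14, 2.15 and 530 in the wild type against 0.393, 0.397 and 1.95 in the mutant. The 530 FPKM came from wild-type CEI-marker library 4. The ADF9 difference of 6.47 (SE 2.01, adjusted p = 0.286, limma) was 4.35 (adjusted p = 0.0611) without the 3 libraries.

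CLE40 encodes a signalling peptide of the root tip that, through the receptor kinase ACR4, is known to promote differentiation of columella stem cells and to restrict WOX5. It had FPKM values of 0, 0 and 2.32 in wild-type QC-marker cells and 8.27, 9.32, 6.80 and 4.61 in the mutant. In CEI-marker cells the order was reversed, with 5.05, 3.08 and 1.88 FPKM in the wild type and 0, 0 and 0.691 FPKM in the mutant. The CLE40 change was 2.43 (SE 0.53, adjusted p = 0.0256, limma) in QC-marker and -1.80 (SE 0.57, adjusted p = 0.478) in CEI-marker cells. Its difference was 4.23 (95% interval 2.56 to 5.89, adjusted p = 0.105, limma), and the adjusted p was 0.0135 without the 3 libraries.

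LBD4, a LOB domain transcription factor, had FPKM values of 6.78, 0 and 0 in wild-type and 12.3 to 19.6 in mutant QC-marker cells. In CEI-marker cells its FPKM was 2.98, 5.09 and 8.80 in the wild type against 1.70, 0.349 and 1.80 in the mutant. Its difference was 4.55 (SE 1.02, adjusted p = 0.141, limma). MAKR5, a membrane-associated regulator of receptor kinase signalling, had FPKM of 12, 0 and 19.9 in wild-type and 32.2 to 59.8 in mutant QC-marker cells. Its CEI-marker FPKM ranged from 1.86 to 9.15 in the wild type and from 0.442 to 1.56 in the mutant (difference 4.44, SE 1.23, adjusted p = 0.236, limma).

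TPPI, a trehalose-6-phosphate phosphatase, had the pattern of WAG2. It had FPKM values of 28.5, 23.1 and 27.0 in wild-type QC-marker cells and 4.83, 2.74, 4.88 and 6.19 in the mutant. In CEI-marker cells it had FPKM values of 1.05, 3.11 and 0.874 in the wild type against 3.53, 18.1 and 4.87 in the mutant. The change of TPPI was -2.30 (SE 0.56, adjusted p = 0.0396, limma) in QC-marker and 1.67 (SE 0.60, adjusted p = 0.563) in CEI-marker cells, a difference of -3.97 (SE 0.82, adjusted p = 0.122). CA1, a carbonic anhydrase abundant in leaves, stood at 243, 7.71 and 8.54 FPKM in mutant CEI-marker cells against 0.579 to 1.25 in the wild type. In QC-marker cells CA1 had 3.40 to 6.77 FPKM in the wild type and 1.89 to 3.23 in the mutant. Its change was -0.56 (SE 0.90, adjusted p = 0.757, limma) in QC-marker and 3.78 in CEI-marker cells, so most of the difference came from the CEI-marker side. The 243 FPKM came from wox5-1 CEI-marker library 1, the library with the high green tissue sum. The CA1 difference was -4.34 (SE 1.32, adjusted p = 0.283, limma) and -2.57 (adjusted p = 0.0140) without the 3 libraries.

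**Figure D4:**
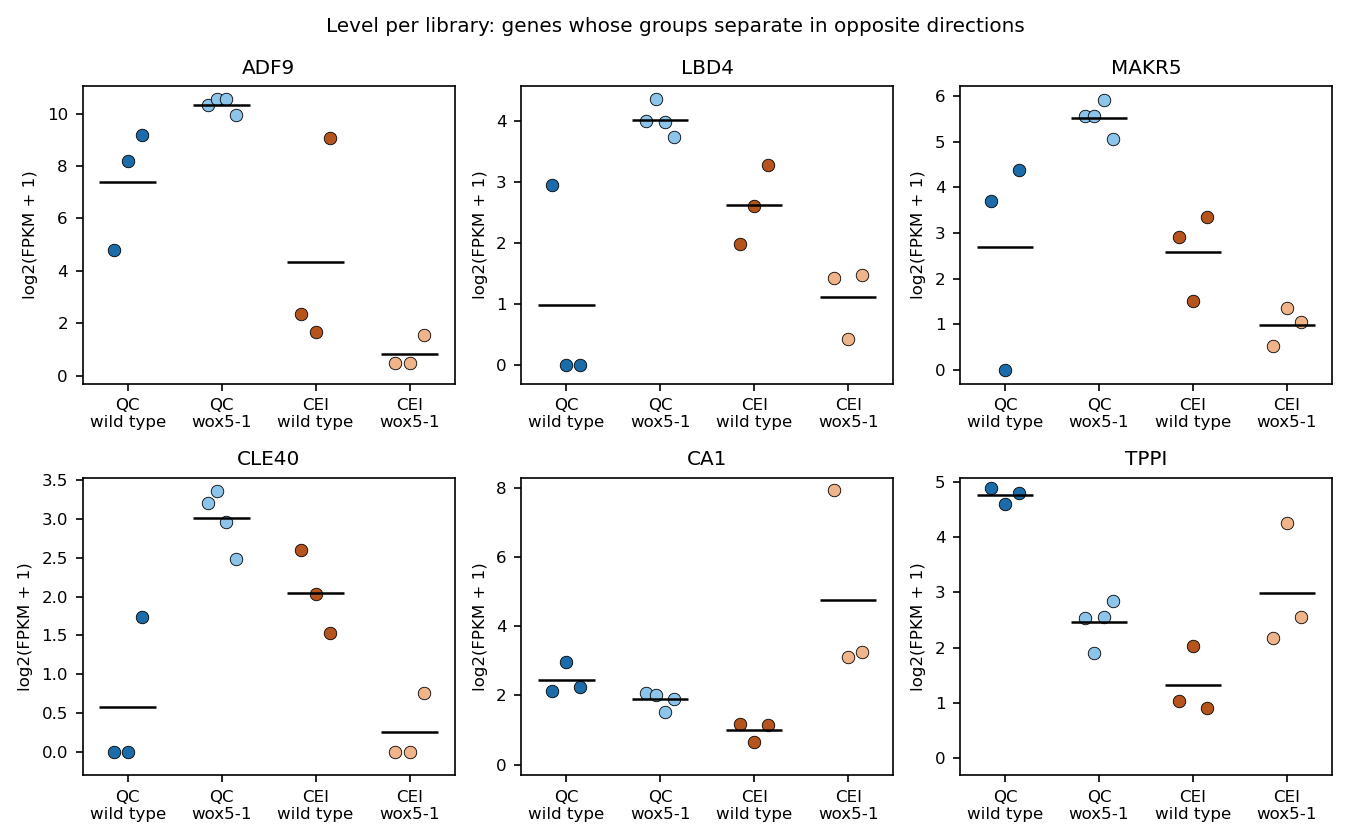
Level of the 6 genes with a symbol and the largest differences among the 152 that separate in opposite directions, as log2(FPKM + 1) (y axis) in each library (points) by population and genotype, with the group mean (line). ADF9, LBD4, MAKR5 and CLE40 are higher in wox5-1 QC-marker and lower in wox5-1 CEI-marker cells, and CA1 and TPPI the reverse, with adjusted p from 0.105 to 0.286.

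The genes called in QC-marker cells were next followed into the CEI-marker libraries, which entered that call only through the filter and the shared variance estimate. Leaving out 1 CEI-marker library moved the number of QC-marker calls from 741 to between 522 and 1017. Without 1 wox5-1 QC-marker library it was 199 to 247, and without 1 wild-type QC-marker library 647 to 1514. It was 127 with a variance per group, 179 with a replicate block and 385 with median-of-ratios scaling. Of the 659 genes higher in QC-marker cells, 536 (81.3%) also had a positive change in CEI-marker cells, against 54.5% of all genes tested. Their median change was 2.71 in QC-marker cells, where it was selected, and 0.63 in CEI-marker cells. In CEI-marker cells 192 of them had a fitted increase of at least 1, 12 a decrease of at least 1, and 234 a change under 0.5 in size. Of the 82 genes lower in QC-marker cells, 22 (26.8%) had a negative change in CEI-marker cells, against 45.5% of all, and their median there was 0.32. The list of genes called higher was then kept fixed. Across the alternative settings and left-out libraries, the share of that list that was positive in CEI-marker cells lay between 75.9% and 84.2%. Over all genes the 2 changes had a Pearson correlation of 0.098 and a Spearman correlation of 0.087, given as a description, since genes are not independent and share libraries.

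Jasmonate genes were among those that rose in QC-marker cells. Jasmonate is a wound hormone, and its JAZ repressors are themselves induced by it. Of the 24 tested members of the list, 9 were called higher (against 3.05% of all genes tested) and 0 lower in QC-marker cells, and 0 in CEI-marker cells. On the difference 0 were called, while 21 of 24 were positive (61.8% of all genes) and 9 were higher at an unadjusted p under 0.05 (7.19% of all genes). The list's median change was 1.39 in QC-marker and 0.42 in CEI-marker cells, and its median difference was 1.04, against 0.32 for all genes.

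JAZ8 had FPKM values of 5.14, 0.524 and 4.33 in wild-type and 56.4, 55.2, 50.1 and 53.1 in mutant QC-marker cells. In CEI-marker cells its FPKM was 19.9, 10.2 and 23.1 in the wild type against 17.2, 27.8 and 7.52 in the mutant. The wild-type QC-marker libraries were below all others. The change of JAZ8 was 3.89 (SE 0.54, adjusted p = 0.00317, limma) in QC-marker cells and -0.11 (95% interval -1.35 to 1.12) in CEI-marker cells. Its difference of 4.0 (SE 0.79) had an adjusted p of 0.108. JAZ7 had changes of 3.49 and 0.03 and a difference of 3.46 (SE 1.08, adjusted p = 0.288, limma). The largest QC-marker change in the list was that of AOC1, an allene oxide cyclase of jasmonate synthesis, at 5.37, with 1.56 in CEI-marker cells. The most negative of the 3 negative differences was that of LOX2, a lipoxygenase of jasmonate synthesis in leaves, with changes of -0.40 in QC-marker and 1.52 in CEI-marker cells. AOC1 and LOX2 were chosen after their values were seen.

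Glutathione transferases and related detoxification genes had, with all 13 libraries, the largest median difference of the 20 lists, 1.49, with medians of 1.07 in QC-marker and -0.13 in CEI-marker cells. Without the 3 libraries that median was 1.17, below those of the differentiating endodermis (1.58) and of S phase and replication (1.52). Of 22 tested, 3 were called higher in QC-marker cells (3.05% of all genes), 0 were called on the difference, and 19 were positive (61.8% of all genes). GSTU6 had FPKM values of 153, 2.62 and 25.9 in wild-type and 699 to 851 in mutant QC-marker cells. Its CEI-marker FPKM was 199, 63.8 and 144 in the wild type against 120, 161 and 108 in the mutant. The GSTU6 difference was 4.87 (SE 1.24, adjusted p = 0.202, limma), with a CEI-marker change of 0.06 (95% interval -1.88 to 2.01). GSTU4 had changes of 4.22 and -0.18 and a difference of 4.40 (SE 1.04, adjusted p = 0.161, limma). GSTU genes of 1 family are similar in sequence, and fragments may have been assigned to the wrong member.

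Early stress genes gave a median difference of 0.84 (0.52 without the 3 libraries) with 10 of 10 positive and 0 called. WRKY40, a stress-induced transcription factor, had FPKM values of 49.6 to 131 in wild-type and 393 to 487 in mutant QC-marker cells, and overlapped in CEI-marker cells (33.3 to 225 and 68.6 to 194 FPKM). Its difference was 1.90 (SE 0.80, adjusted p = 0.411, limma). The calcium-binding protein gene CML38 had a difference of 1.87 (SE 0.85, adjusted p = 0.439, limma). Heat shock genes did not share the sign: 3 of 9 were positive, with a median of -0.19 that was 1.01 without the 3 libraries. HSFA2, a heat shock transcription factor, had a difference of -2.00 and the chaperone HSP70B one of 1.93 (adjusted p = 0.486 and 0.622, limma).

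Root hair genes had mostly positive changes in both populations. The median change of the 13 epidermis and root hair genes was 2.09 in QC-marker and 1.95 in CEI-marker cells, and 10 of 13 were positive in both. Without wild-type QC-marker library 2 the QC-marker median was 0.96. Only LRX1, a cell wall protein of root hairs, was called, in QC-marker cells. Their summed FPKM was 297 to 1830 in wild-type and 1711 to 2877 in mutant QC-marker cells, and 244 to 3431 in wild-type and 2161 to 3118 in mutant CEI-marker cells. The part of these cells in the other results was not tested. In bulk RNA, more cells of a type and more RNA per cell cannot be told apart. The genes of the list with the smallest p on the difference were RSL1, a root hair transcription factor (difference -2.51, SE 1.05, adjusted p = 0.411, limma), and WER, a MYB factor of non-hair cells (-1.78, SE 0.90, adjusted p = 0.474).

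Markers of the other cell types gave 0 calls on the difference. The median of the 13 columella and root cap genes was 0.64 and turned to -0.17 without the 3 libraries. Within that list, PIN7, an auxin efflux carrier, had a difference of 3.59 (SE 1.33, adjusted p = 0.367, limma), which was 1.31 without the 3 libraries. The median of the 9 endodermis genes was 0.71, and ESB1 and CASP1, which build the Casparian strip, had differences of 2.27 and 2.64 (adjusted p = 0.543 and 0.591, limma). Without wild-type QC-marker library 2 those were 1.15 and 0.81, and without the 3 libraries the list median was 1.58. The CASP1 FPKM ran from 0.295 to 179 in wild-type QC-marker cells alone. For the 11 stele and pericycle genes the median was 0.97 (0.76 without wild-type QC-marker library 2, 0.37 without the 3 libraries). TMO5, a basic helix-loop-helix factor of the vascular initials, separated in opposite directions. TMO5 had FPKM values of 1.86, 0 and 0 in wild-type and 2.01 to 4.95 in mutant QC-marker cells, and of 3.24 to 3.89 in wild-type and 0 to 1.38 in mutant CEI-marker cells. Its difference was 3.26 (SE 0.74, adjusted p = 0.141, limma), and that of PHV, an HD-ZIP III factor, was 1.98 (SE 0.84, adjusted p = 0.411).

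The 18 tested genes of the QC and niche had a median difference of 0.33 (0.81 without the 3 libraries, against 0.30 for all genes), with medians of -0.49 and -0.77 in the populations, and 11 were positive. RGF3, a peptide of the root growth factor family, had FPKM values of 670 to 1395 in wild-type and 1294 to 1559 in mutant QC-marker cells. In CEI-marker cells it had FPKM values of 90.0, 41.9 and 426 in the wild type against 54.5, 22.8 and 30.5 in the mutant. Its difference was 2.39 (SE 0.87, adjusted p = 0.365, limma). For the 11 young ground tissue genes the median difference was 0.27, and it was 0.90 without the 3 libraries.

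Green tissue genes had the most negative median with all 13 libraries, -2.68, with 0 of 10 positive and 0 called. RBCS1A, the small subunit of Rubisco, stood at 6006, 3.68 and 19.7 FPKM in wox5-1 CEI-marker libraries 1, 2 and 4, where the wild-type CEI-marker libraries held 2.53 to 4.48 and the QC-marker libraries 0 to 0.93. LHCB2.2, an antenna protein of photosystem II, stood at 184, 1.24 and 0.967 FPKM in the same 3 libraries. The 6006 and 184 FPKM were those of library 1, and the 19.7 FPKM of RBCS1A in library 4 also lay above the wild-type CEI-marker range. The list's median was -0.06 without the 3 libraries.

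Cell division genes had 0 calls on the difference. The median difference of the 19 genes of S phase and replication was 0.77 with 14 positive, and 1.52 without the 3 libraries. In wild-type QC-marker library 2, MCM5, a subunit of the replicative helicase, was at 0.0756 FPKM, against 16.7 and 17.9 in the other 2 wild-type and 19.6 to 34.0 in the wox5-1 QC-marker libraries. In CEI-marker cells MCM5 overlapped (4.40 to 29.6 and 3.85 to 13.7 FPKM), and its difference was 2.87 (SE 1.3, adjusted p = 0.438, limma). CYCA3;1, an A-type cyclin, had a difference of 2.37 (SE 0.97, adjusted p = 0.407, limma). The 10 D-type cyclins had a median of 1.04, which was 0.75 without the 3 libraries but 0.17 without wild-type QC-marker library 2. In that library CYCD3;3 was at 0.131 FPKM, against 18.1 and 65.7 in the other 2 (difference 3.25, SE 1.36, adjusted p = 0.410, limma). The 25 genes of G2 and M phase had a median of 0.21, which was 0.37 without the 3 libraries and -0.05 without wild-type QC-marker library 2. CYCB2;1 and CYCB2;4, mitotic cyclins, had differences of 2.23 and 1.76 (adjusted p = 0.389 and 0.529, limma), and of 1.61 and 0.62 without that library.

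Hormone genes other than jasmonate held the single list member called on the difference, WAG2. Of the 19 tested genes of auxin synthesis and transport, 12 were positive, and the median was 0.86. IAMT1, an enzyme that methylates auxin, was called in QC-marker cells at 4.70 (adjusted p = 0.00145, limma), with 1.03 in CEI-marker cells and a difference of 3.68 (adjusted p = 0.145). IAMT1 was chosen after its values were seen.

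Auxin response genes had a median of -0.29, or -1.07 without the 3 libraries, and 11 of 19 were negative. IAA3, a repressor of auxin response, had FPKM values of 3.21, 16.6 and 7.26 in wild-type and 4.21 to 5.83 in mutant QC-marker cells. In CEI-marker cells IAA3 had FPKM values of 0.301 to 2.05 in the wild type against 3.0 to 12.9 in the mutant, without overlap (difference -2.34, SE 0.89, adjusted p = 0.378, limma). LBD29, a lateral root transcription factor, was listed at 0 in the 3 wild-type CEI-marker libraries and 1.73, 11.1 and 1.04 in the mutant (difference -2.27, SE 0.73, adjusted p = 0.303, limma). LBD29 reached 1 FPKM only in those 3 mutant libraries, so it passed the filter only through the group where it was high. It thus had to differ between groups, and only 10 of the 13 fits that leave out 1 library could test it.

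Type-A response regulators, which are induced by cytokinin and dampen its response, had a median of -0.63 with 6 of 7 negative and 0 called. ARR9 had FPKM values of 16.4, 19.2 and 29.2 in wild-type and 18.8 to 25.0 in mutant QC-marker cells. In CEI-marker cells ARR9 was higher in every mutant library, at 23.4, 30.0 and 21.5 FPKM against 7.57, 14.1 and 7.34 in the wild type. Its difference was -1.3 (SE 0.53, adjusted p = 0.408, limma), and that of ARR8 was -1.58 (SE 0.69, adjusted p = 0.425), or -0.90 without wild-type QC-marker library 2. Among the 7, ARR3 was the one with a positive difference, 2.15 (chosen after its value was seen).

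Brassinosteroid genes had a median of -0.48 over 11. BR6OX2, the enzyme of the last step of brassinolide synthesis, had FPKM values of 12.1, 44.6 and 9.93 in wild-type and 1.94 to 2.61 in mutant QC-marker cells. In CEI-marker cells its FPKM overlapped (6.48 to 27.9 and 10.4 to 24.8). The change of BR6OX2 was -2.49 (SE 0.61, adjusted p = 0.0398, limma) and -0.05 (95% interval -1.44 to 1.33), with a difference of -2.43 (SE 0.89, adjusted p = 0.365). The 44.6 FPKM was in wild-type QC-marker library 2, without which the BR6OX2 difference was -1.79. Without the 3 libraries it was -1.10 (adjusted p = 0.179, limma), with a CEI-marker change of -0.74. The receptor BRL3 had a difference of -1.72 (SE 0.86, adjusted p = 0.467, limma).

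The GRF and GIF family, the growth-regulating factors and the coactivators that bind them, was divided, with 5 of 10 positive and a median of -0.23 that was 0.65 without the 3 libraries. GRF4 in CEI-marker cells had 31.6, 37.0 and 11.9 FPKM in the wild type and 10.7, 0.425 and 2.21 in the mutant without overlap, and was under 4 FPKM in every QC-marker library (difference 2.36, SE 1.09, adjusted p = 0.441, limma). GRF5 had the reverse sign, -2.06 (SE 0.86, adjusted p = 0.410, limma).

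**Figure D5:**
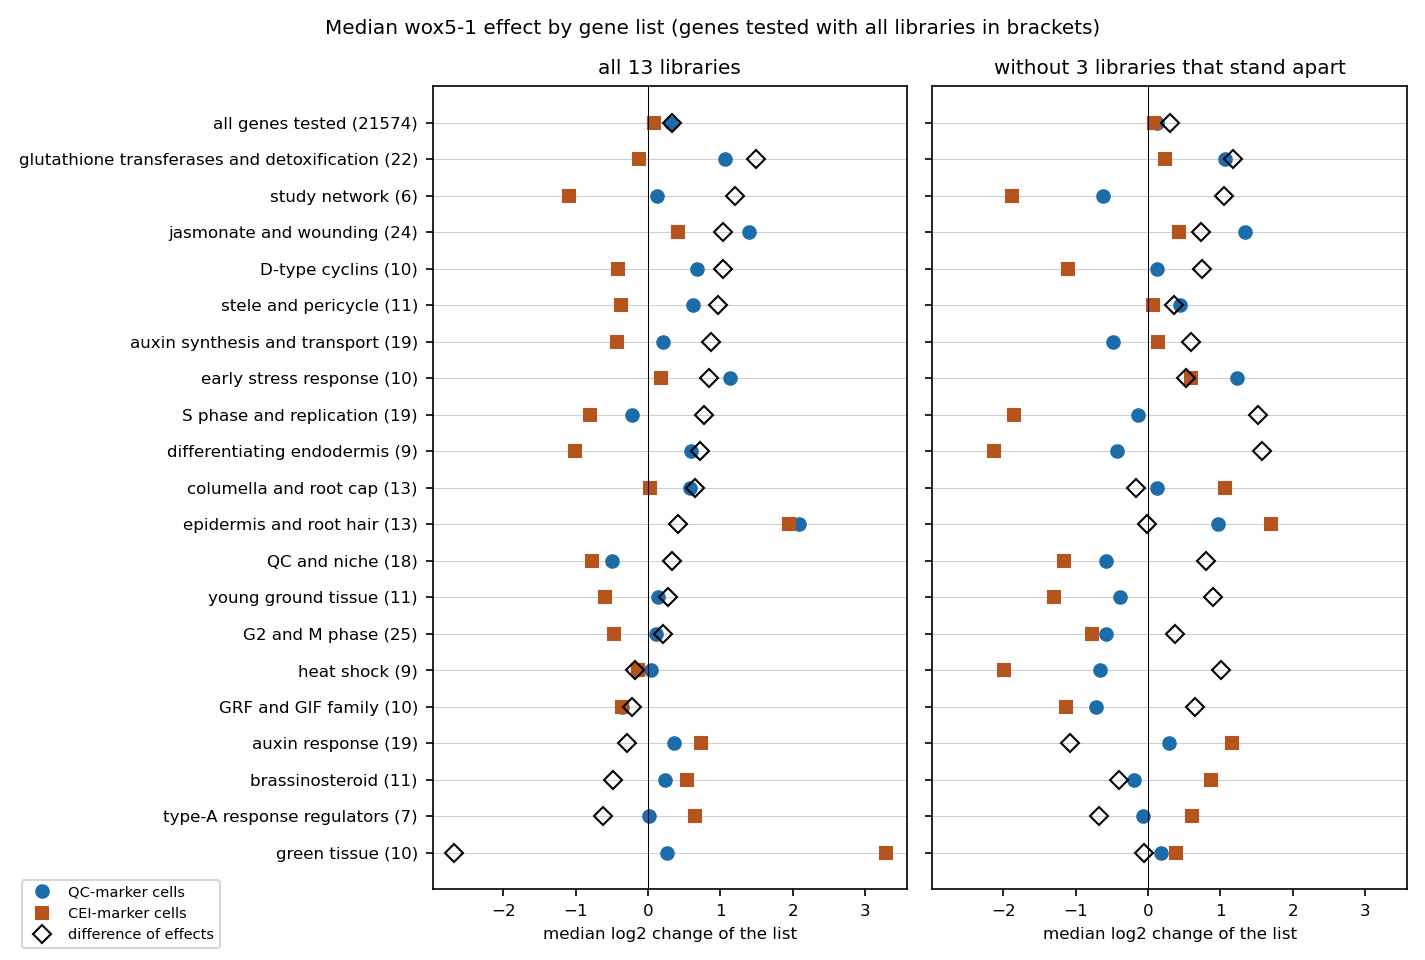
Median log2 change of each gene list (x axis) in QC-marker cells (circles), in CEI-marker cells (squares) and as the difference of effects (diamonds), with all 13 libraries (left) and without the 3 libraries that stand apart (right). The green tissue difference lies at -2.68 on the left and -0.06 on the right, and the jasmonate difference at 1.04 and 0.73.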

How the data were processed

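RNA was measured in 13 libraries of fluorescence-sorted Arabidopsis root protoplasts. Per the labels' protocols, cDNA was amplified with a low-input SMARTer kit and no molecular identifiers are named. The deposited table holds FPKM values that the authors made with Cufflinks (no version given), per the submitters' processing notes. Not given in the sources used here are the aligner, genome build, annotation and strandedness. No coordinates or sequences are therefore printed, and overlapping genes and close paralogs cannot be told apart. The table holds no counts, and depth is unknown here. RefSeq (TAIR10.1) names were found for 32826 of 33560 identifiers.

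Libraries of 1 group are biological replicates by their titles. Column numbers of the CEI-marker libraries (1, 3 and 4 in the wild type, 1, 2 and 4 in wox5-1) are names only, since they do not match the titles' numbers.

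One limma fit (3.58.1, R 4.3.3, mean-variance trend, 2-sided) of log2(FPKM + 1) had a mean for each of the 4 groups. It had 9 residual degrees of freedom, to which limma's shared variance added 5.28. Fold changes on this scale understate those of low genes. Medians and counts describe the 20 gene lists (281 loci), with no set test. The members and lists were chosen with earlier results of these data known. Genes named are WOX5, PAN, AN3, SHR, SCR and CYCD6;1, the called genes, and the 2 members of each list with the smallest p (called members where there are any). Also named are the 6 genes with a symbol and the largest difference among those that separate in opposite directions. Outside these rules, WIP5 and MGP were picked from the marker genes, and LRX1 and AT1G43170 (RPL3A) were picked for their values. Others are marked as chosen later. Alternatives were other pseudocounts (0.1 and 5), other filters on low values (none, or 5 FPKM), median-of-ratios and quantile scaling, a variance per group, no trend, a replicate block, and libraries left out. The fits without pairs of the 3 libraries that stand apart were added after seeing the data.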

Additional observations from a re-analysis of the deposited data

Results flagged for a closer look

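The 5 genes called on the difference of effects are listed because limma's test of that difference called them at an adjusted p under 0.05. The values were -3.30 for WAG2, -4.44 for AT2G41233, 4.25 for ATMG00360, 5.07 for AT3G17100 and -4.31 for AT3G44440, each in log2(FPKM + 1). AT3G44440, AT2G41233 and ATMG00360 each have at least 1 group listed at 0 in all libraries. AT2G41233 and ATMG00360 passed the filter only through the 1 group where they were above 0, so they had to differ between groups. With all 13 libraries, the calls of WAG2, AT3G44440 and AT3G17100 are shown only with those 2 genes in the test.

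In wox5-1 QC-marker cells (n = 4), 1 library lay far above the other 3 for a pair of genes near 0. RBCS1A was at 0.417 FPKM in the highest library and LBD29 at 0.112 FPKM. Chance flags about 1 in 20 such groups, and this group was examined for every named gene.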

How the results depend on the processing

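The count of 5 calls on the difference (2 higher, 3 lower, 2 opposite) became 15 (7 higher, 8 lower) with no filter, 0 (0 higher, 0 lower, 0 opposite) with a filter at 5 FPKM, 17 (9 higher, 8 lower, 9 opposite) with quantile normalization and 0 (0 higher, 0 lower, 0 opposite) with a variance per group. Those 2 settings without calls left 1597 and 1734 genes at an unadjusted p under 0.05. Median-of-ratios scaling left 1 higher call, a pseudocount of 5 left 1 opposite call, and no mean-variance trend gave 5 higher and 1 opposite. Without the 3 libraries that stand apart the count was 2979 (1934 higher, 1045 lower, 604 opposite). Without pairs of them it was 225 (101 higher, 124 lower, 113 opposite) for wild-type QC-marker library 2 and wild-type CEI-marker library 4. It was 316 (86 higher, 230 lower, 195 opposite) for wild-type QC-marker library 2 and wox5-1 CEI-marker library 1. It was 99 (82 higher, 17 lower, 25 opposite) for the 2 CEI-marker libraries. Leaving out each replicate in turn gave 0 to 59 calls, 0 to 50 higher, 0 to 18 lower and 0 to 18 opposite. The cause of these shifts was not tested.

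With a replicate block for the QC-marker numbers, 1 gene was called (1 higher, 0 lower, 0 opposite), and 0 of the 5. The correlations of same-numbered QC-marker libraries, 0.031, 0.090 and -0.057, do not pair them, and the CEI-marker numbers could not be paired.

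Among named genes, AN3 changed sign to 0.998 without the 3 libraries, 0.352 without wild-type QC-marker library 2 and wild-type CEI-marker library 4, and 0.915 without the 2 CEI-marker libraries. Over single libraries left out it ran from -1.62 to 0.27, and SCR from -0.0815 to 1.56. The other 46 kept their direction in every setting that tested them. Leaving out 1 library moved the difference of 19 of the 48 by over 1.5 times, none of them called, 11 of them without wild-type QC-marker library 2 (CYCD3;3 to 1.59, MCM5 to 1.51, PHV to 1.32, HSP70B to 1.17, SHR to 1.02) and 8 without wild-type CEI-marker library 4 (RGF3 to 1.47, WRKY40 to 1.21, HSFA2 to -1.15).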

Other observations

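Genes with the ATCG prefix of the chloroplast genome were examined after their values were seen. Of 87 tested, 81 had a negative difference of effects (8241 of the 21574 genes in all), 25 were lower at an unadjusted p under 0.05 (3.96% of all genes) and 0 were called. Their median change was -1.28 in QC-marker and 0.86 in CEI-marker cells, a median difference of -2.14, against 0.33 for the 21422 nuclear genes. Their share of a library's summed FPKM was 0.336% to 1.89% in wild-type and 0.142% to 0.566% in wox5-1 QC-marker cells. In CEI-marker cells it was 0.869% to 1.98% in the wild type and 1.75% to 3.38% in wox5-1. The genotypes overlapped in both populations, and the lowest wild-type QC-marker share was that of library 2, which listed the fewest genes. The 65 genes with the ATMG prefix of the mitochondrial genome had a median difference of -0.59, with 44 negative and 1 called, ATMG00360.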
